A study of Mus musculus with 2 samples.

Results

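The transcripts described here lie over the immunoglobulin heavy-chain locus of the mouse, on chromosome 12 of the mm9 genome. They were chosen as every line, on either strand, that overlapped chr12:114490000-116100000, which gave 233 of the 110003 transcripts in the list analysed. The 8 constant genes of the locus, Ighm, Ighd, Ighg3, Ighg1, Ighg2b, Ighg2c, Ighe and Igha, were all found. The RNA was from V6.5, a mouse embryonic stem cell line kept on a feeder layer of irradiated mouse embryonic fibroblasts, which may add RNA of their own. It was made into 1 library of polyadenylated RNA and 1 library of total RNA depleted of ribosomal RNA, both from cells with no further treatment named in the labels. The data are 1 pooled list of transcript positions, strands and exon blocks. It names neither library, gives no read count and does not say which transcripts those libraries supplied, so no depth can be given for any transcript and the 2 kinds of RNA were not compared. Transcripts of 1 locus share exons and are not replicates, and all values below describe the list.

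Heavy chains are encoded in pieces. In developing lymphocytes, DNA recombination joins a diversity (D) segment to a joining (J) segment and then a variable (V) segment to the DJ unit, and splicing links the joined exon to the constant exons. Ighm and Ighd, which encode the constant parts of IgM and IgD, lie nearest to the J segments. Class switching in activated B cells later brings another constant gene, for IgG, IgE or IgA, next to the same variable exon. Each constant gene can end in a short secreted tail or splice to separate exons that anchor the chain in the membrane as part of the B cell receptor. Unrearranged constant genes are also transcribed from upstream non-coding exons, in transcripts known as germline or sterile transcripts.

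The J segments are the points through which nearly all the long transcripts passed, so their sequences are given first. Of the 71 minus-strand transcripts that ran from a V, D or J segment to a constant exon, 70 had an exon over 1 of the 4 J segments, and in 66 that exon ended at the annotated 3′ end of the segment. The sequences are those of GENCODE release M21 on GRCm38, 5′ to 3′ in the sense of the heavy chain, since the list holds no bases. Capitals mark the bases that lay inside the exon of every transcript counted for that segment, and lower case marks bases that were missing from at least 1.
Ighj1: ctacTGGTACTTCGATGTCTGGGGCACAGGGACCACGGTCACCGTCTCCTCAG
Ighj2: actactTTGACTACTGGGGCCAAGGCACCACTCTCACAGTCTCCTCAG
Ighj3: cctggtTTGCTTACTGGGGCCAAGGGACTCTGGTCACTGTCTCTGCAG
Ighj4: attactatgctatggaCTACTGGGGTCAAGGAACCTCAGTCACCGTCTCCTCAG
With the 3′ end fixed in this way, bases can be missing from the 5′ end alone. The J exons of the other four transcripts stopped short of the annotated 3′ end. Capitals covered 49 of 53 bases in Ighj1 (13 transcripts), 42 of 48 in Ighj2 (16), 42 of 48 in Ighj3 (22) and 38 of 54 in Ighj4 (15). In mm9 the segments lay at chr12:114667992-114668044 (Ighj1), chr12:114667679-114667726 (Ighj2), chr12:114667296-114667343 (Ighj3) and chr12:114666725-114666778 (Ighj4), all on the minus strand.

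The transcripts of the locus had more than 1 exon more often than those of the list, and their longest gap between exons had a higher median. An intron here is any gap of at least 30 bp between exon blocks on the unrearranged reference, and a spliced transcript is any with such a gap. The list cannot tell a gap removed by splicing from one closed by DNA recombination. With gaps under 30 bp closed, 188 of the 233 transcripts had more than 1 exon (80.7%, Wilson 95% interval 75.1 to 85.2%), where the whole list had 29.9%. An intron over 100 kb was present in 65 transcripts (27.9%, 22.5 to 34.0%), against 0.534% of the list. These intervals cover counting error only, and as the region and the threshold chose what is counted, the shares are descriptions. Of all 587 transcripts of the list with an intron over 100 kb, 11.1% were in this region, and of the 27 with an intron over 500 kb, 22 were. The single intron over 1 Mb in the list was elsewhere. The median longest intron of spliced transcripts was 17921.5 bp, against 2764 bp in the list. The median span was 7504 bp against 596 bp, while the median summed exon length was similar, at 537 nt and 513 nt. Nearest to the threshold of 100 kb, U202275-11 (102308 bp) and U202275-10 (105178 bp) were inside, and U055814-63 (98562 bp) and U353982-1 (84162 bp) were outside.

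**Figure D1:**
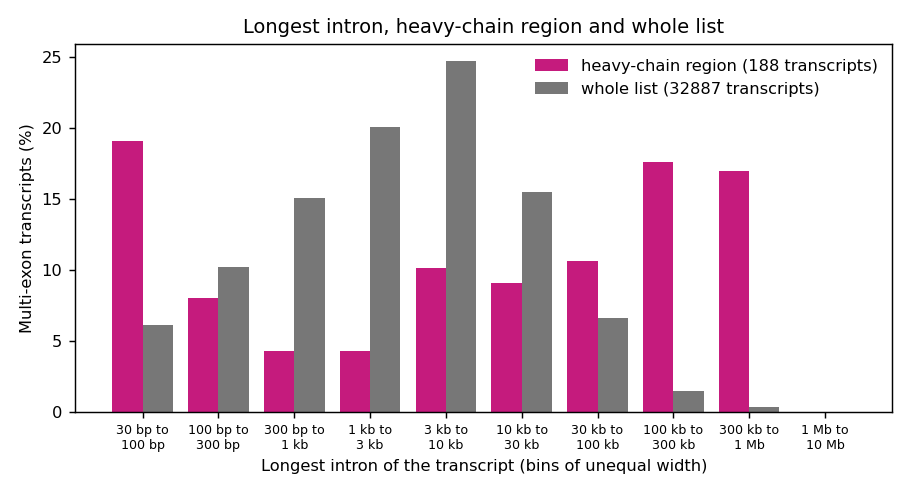
Share of spliced transcripts (vertical axis, %) by the length of their longest intron (horizontal axis, bins of unequal width) in the heavy-chain region and in the whole list. The region had 17.6% of its spliced transcripts between 100 and 300 kb and 17.0% between 300 kb and 1 Mb, and the list 1.48% and 0.301%. A longest intron of 30 to 100 bp was present in 19.1% of the region's spliced transcripts and 6.1% of the list's.

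The strand and the names were also uneven. The minus strand, on which the heavy-chain genes are read, held 197 transcripts (84.5%), against 50% of the list (55029 of 110003), and the plus strand held 36. Names began with U in 230 transcripts and with FT in 3, and none began with BROAD or WHITEHEAD, the other prefixes of the list, in which 79.2% of names begin with U. The labels and the file do not explain the prefixes. A single name stem, U055814, covered 121 lines, all on the minus strand and all inside the region, and 84 of them had a constant exon. The next stems were U202275 with 11 lines and U336696 and U338490 with 5 each, and 71 of the 84 stems had a single line.

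By the segments their exons covered, the minus-strand transcripts fell into classes. V-to-constant transcripts numbered 59, and each had an intron over 100 kb. Another 11 ran from a D segment to a constant exon, 1 from a J segment, and 15 had a constant exon and no V, D or J exon. A V exon without a constant exon was present in 93, and 18 had neither. Spans differed between these classes: the V-to-constant transcripts covered 152097 to 1592833 bp (median 478769 bp), the D-to-constant transcripts 29850 to 207435 bp (median 61535 bp), and the V transcripts without a constant exon had a median of 679 bp. A transcript of a V-to-constant class had 5 to 10 exons, with a median of 7.

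**Figure D2:**
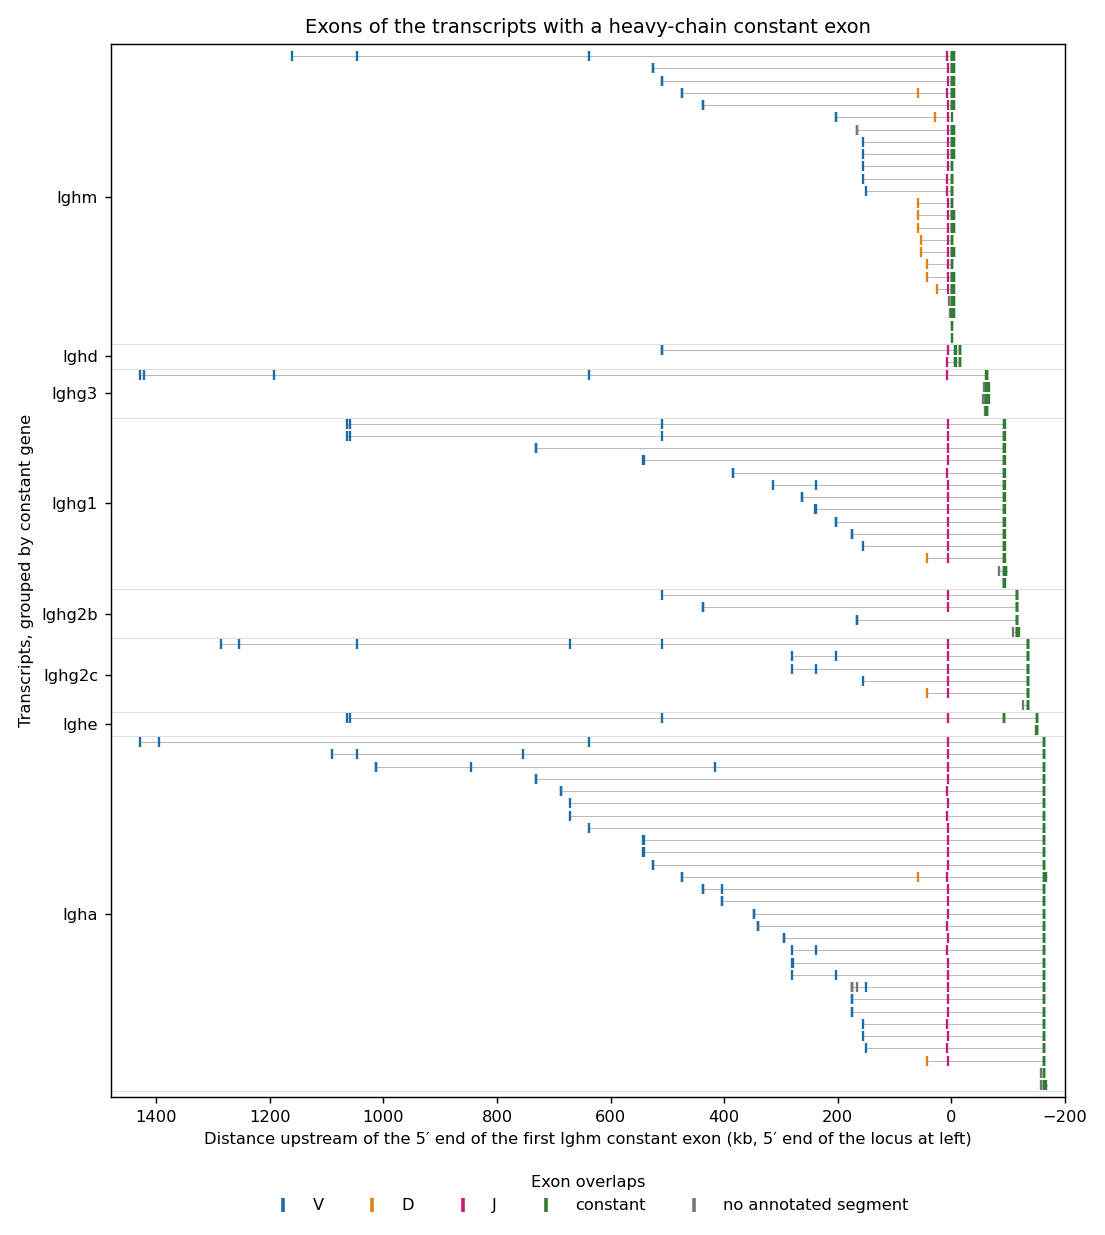
Each line is 1 of the minus-strand transcripts with an exon of a constant gene, grouped by that gene, with ticks for exons coloured by the segment they overlap and grey lines for introns; the horizontal axis is the distance upstream of the first Ighm constant exon in kb. V exons lie 150.2 kb or more upstream, the J exons form 1 column just upstream of Ighm, and the constant exons of Igha lie 162 kb downstream; the transcript with exons of both Ighg1 and Ighe is drawn once, under Ighe.

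Transcripts per constant gene were counted in 2 ways. Runs of intron, exon and intron lengths equal to the annotation named 50 transcripts. Adding every transcript with an exon that overlapped an exon of those 50 raised the count to 85, and the description below uses the 85. Igha, the constant gene of the IgA of mucosal secretions, had the most by overlap, with 29 transcripts, but 6 by runs. Ighm had 24 by overlap and the most by runs, 17. Ighg1 had 15 by overlap and 13 by runs, and Ighg2c 6 and 2. Ighg3 and Ighg2b had 4 each, and Ighd and Ighe 2 each, by both counts. The 4 gamma genes together had 29. No plus-strand transcript lay over a constant gene. Introns over 100 kb were present in 61 of the 85 transcripts and in 32 of the 50.

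**Figure D3:**
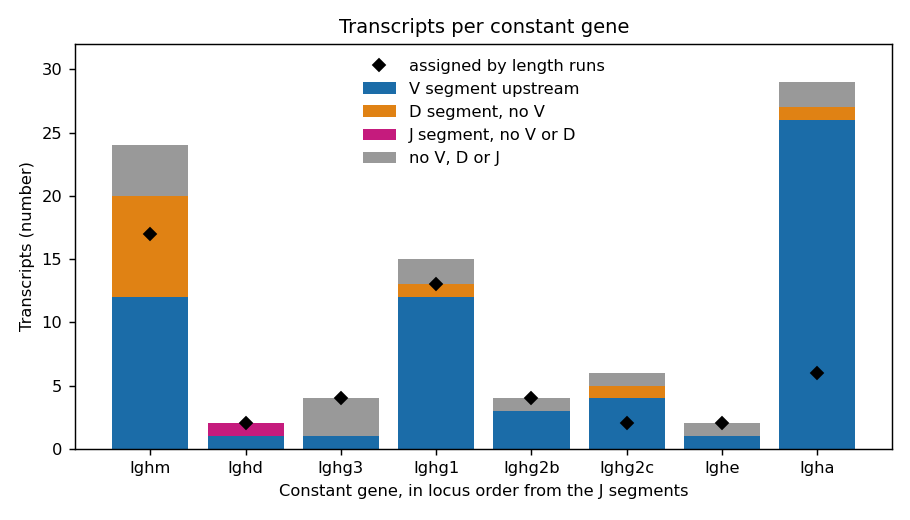
Number of transcripts (vertical axis) with an exon of each constant gene, in the order of the locus from the J segments, stacked by the most upstream kind of segment; diamonds give the number named by runs of lengths. Igha (29) and Ighm (24) are highest, V-to-constant transcripts make up 26 of the Igha and 12 of the Ighm transcripts, and the diamond is farthest below the bar for Igha (6 against 29).

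Ighm, the constant gene of IgM, had exons over chr12:114656768-114660941. Its transcripts spanned 324 to 1165476 bp (median 108002 bp), and 12 began at a V segment, 8 at a D segment and 4 within or just upstream of the constant gene. Of the 24, 15 ended in the exons that anchor IgM in the membrane (116 and 278 nt), 6 stopped at the splice site at the end of the 333-nt exon from which those exons are reached, and 1, FT33204, covered the secreted tail. The commonest set of constant exons, with lengths of 315, 339, 318, 333, 116 and 278 nt, was present in 12. In 4 others a 936-nt exon covered the 339-nt and 318-nt exons and the sequence between them, and in 3 the 318-nt exon was 38 nt shorter at its 5′ end. U055814-54 had the longest intron of the gene, 630014 bp from Ighv14-3 to Ighj1. U055814-86 shared the highest exon number, 10, and it held an exon of 14 nt over the D segment Ighd1-1, between Ighv7-1 and Ighj1.

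Ighd, the constant gene of IgD (not to be confused with the D segments, such as Ighd1-1), lay at chr12:114645174-114654535. It began 6.41 kb downstream of the 5′ end of the first Ighm constant exon, from which all distances to Ighm here are measured. It had 2 transcripts, and both reached the last exons annotated for the membrane form. U055814-79 ran from Ighv14-1 through Ighj4 with an intron of 503394 bp and 9 exons. U055814-46 had no V or D exon. It was the only transcript that began at a J segment, with a first exon of 683 nt that covered Ighj1 and the sequence upstream of it, and it spanned 23501 bp. The 2 transcripts differed by 1 nt in the first Ighd exon (281 and 282 nt) and had the same exon lengths after it.

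The gamma genes encode the IgG subclasses, and their hinge exons, which encode the flexible link between the arms and the stem of IgG, show how far the exons of the list followed the annotation. The hinge sequences below are from the same annotation, with capitals for bases inside the hinge exon of every transcript of that gene and lower case for bases missing from at least 1.
Ighg3: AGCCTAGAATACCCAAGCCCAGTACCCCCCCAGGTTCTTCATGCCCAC
Ighg1: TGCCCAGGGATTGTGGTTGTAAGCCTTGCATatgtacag
Ighg2b: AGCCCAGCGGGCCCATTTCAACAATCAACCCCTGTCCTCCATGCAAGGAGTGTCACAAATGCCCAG
Ighg2c: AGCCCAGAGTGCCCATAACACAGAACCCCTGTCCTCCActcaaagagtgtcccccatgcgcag
The hinge was whole in all 4 transcripts of Ighg3 (48 nt) and all 4 of Ighg2b (66 nt). In Ighg1 (39 nt) it was whole in 14 of 15 and 31 nt long in the other. In Ighg2c (63 nt) it was whole in 2 of 6, and in 4 it stopped after 38 nt and was followed by a 321-nt exon in place of the annotated 330 nt.

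Ighg3, at chr12:114594434-114599443, was the gamma gene nearest to Ighm (61.5 kb). A single V-to-constant transcript, U055814-61, reached it, with 9 exons over Ighv1-34, Ighv1-33, Ighv1-12, Ighv14-3, Ighj1 and the gene, an intron of 630014 bp and a span of 1491988 bp. The other 3 began upstream of the gene, outside annotated segments, and 2 of the 4 reached the membrane exons. Ighg1 lay at chr12:114563451-114568734, 92.2 kb from Ighm, with 12 V-to-constant transcripts. Its longest intron was in U055814-48, 724057 bp from Ighv7-3 to Ighj3. The constant exons were those of 291, 39, 321 and 315 nt with no further one in 11 of its 15 transcripts, and 12 stopped at the splice site at the end of the 315-nt exon. Ighg2b, at chr12:114541176-114546144, had 3 V-to-constant transcripts and 1, U055814-41, that began upstream of the gene, with a first intron of 5877 bp. It and U055814-27 held 7 exons, the most of the gene, and in U055814-41 these included both membrane exons. U055814-42 had its longest intron, 502444 bp. Ighg2c, at chr12:114525496-114527143, had 4 V-to-constant transcripts, and all 6 of its transcripts reached into the secreted tail and none had a membrane exon. U055814-23 held the most V segments of any transcript: Ighv1-19, Ighv1-17, Ighv1-2, Ighv9-1 and Ighv14-1 in succession, before Ighj2, with exons of 83, 48, 28, 26 and 195 nt. Its longest intron was 502445 bp.

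Ighe, the constant gene of the IgE of allergic responses, had 2 transcripts, at chr12:114509385-114511457. U055814-19 held 4 exons within the gene over 2073 bp. U055814-20 was the only transcript with exons of 2 constant genes. It ran from Ighv1-4 and Ighv1-3 over an intron of 549670 bp to 41 nt of Ighv14-1, then 503394 bp to Ighj4, 97990 bp to 3 exons of Ighg1, and a further 57324 bp to 3 exons of Ighe, with 10 exons in all. Its Ighg1 part held the 31-nt hinge exon and 57 nt of the next exon. U055814-30 and U055814-60 began with the same 4 exon lengths and stayed within Ighg1.

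Igha, at chr12:114493041-114498447, is the gene farthest from the V segments, and it had the most V-to-constant transcripts, 26 of 29. It also departed most from the annotation. The first 60 bases of its second exon in the annotation, which include the hinge of IgA, are shown with the 41 bases that the commonest form lacked in lower case.
Igha: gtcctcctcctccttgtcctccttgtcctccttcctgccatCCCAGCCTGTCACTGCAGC
These 41 bases were missing from the exon of 16 transcripts, 7 or 6 bases were missing in 5, and 7 had the whole exon of 336 nt. The last of the 29 kept 17 nt of it. Of the 29 first Igha exons, 17 were 273 nt long, short of the annotated 303 nt by 14 nt at the 5′ end and 16 nt at the 3′ end, and 10 were whole. All 16 transcripts with the 295-nt second exon had the 273-nt first exon, and the 333-nt exon after them was whole in 28. These altered ends are where the 2 counting rules parted: a run of equal lengths could be found in 6 Igha transcripts. Of the 29, 26 stopped at the splice site at the end of the 333-nt exon and 2 went on to the 1568-nt membrane exon. U055814-25 spanned 1592833 bp, the longest of the region, and held its longest intron, 757252 bp from Ighv1-30 to Ighv14-3, followed by another of 630716 bp to Ighj3. U055814-10 had the most exons of the gene, 9. Among them were 2 of 9 and 16 nt that covered no annotated segment.

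Constant exons were reused across transcripts. There were 68 distinct exons over the constant genes, 41 of them in at least 2 transcripts with both ends equal, and 38 had both ends at the annotated distance from Ighm. Of the 41 shared exons, 31 did. The most used exon of Ighm was in 21 transcripts, that of Ighg1 in 14 and that of Igha in 28. In all, 7 combinations of constant exons were found among the 24 Ighm transcripts, 5 among the 15 of Ighg1 and 7 among the 29 of Igha.

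The introns over 100 kb had a regular layout. The 65 transcripts held 111 of them, at 74 distinct positions: 28 transcripts had 1, 31 had 2, and 6 had 3 to 5. A V segment and a J segment flanked 54, a J segment and a constant exon 34, 2 V segments 14 (in 9 transcripts), and a V and a D segment 3, and 4 were on the plus strand. The other two were a V-to-constant intron and an intron from an unnamed 6-nt exon to Ighj2. The 54 introns from V to J were 143103 to 746930 bp long (median 387786 bp). By contrast, the 14 introns from a D exon to J were 18700 to 53040 bp long, none over the threshold. Of the 10 longest introns of the region, 9 ended at a J segment, and the longest ended at Ighv14-3. They included 746930 bp in U055814-36 (Ighv14-4 to Ighj2), 724057 bp in U055814-48, 723669 bp in U055814-81 (Ighv7-3 to Ighj2) and 679172 bp in U055814-15 (Ighv9-2 to Ighj1). The next were 665363 bp in U055814-12 and 664101 bp in U055814-11, both from Ighv9-1, and 3 introns from Ighv14-3, of 630716 bp in U055814-25, 630340 bp in U055814-45 and 630014 bp in U055814-54. U055814-61 tied with U055814-54, with an intron of 630014 bp from Ighv14-3 to Ighj1 that is not among the 10.

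The intron from J to the constant gene followed the order of the genes, as the unrearranged reference sequence has them. It measured 5783 to 7050 bp for Ighm (20 transcripts), 12190 and 13456 bp for Ighd, 68548 bp for Ighg3 (1), 97990 to 99261 bp for Ighg1 (13), 121534 bp for Ighg2b (2), 140152 to 140535 bp for Ighg2c (5) and 168277 to 169558 bp for Igha (27). The threshold of 100 kb therefore falls between Ighg1 and Ighg2b, and no J-to-Ighg1 intron was counted as over it. The constant side of this intron lay at the annotated 5′ end of the first constant exon in 19 of 20 Ighm transcripts, 13 of 13 for Ighg1 and 5 of 5 for Ighg2c, and in 10 of 27 for Igha.

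All 4 J segments were used. Ighj3 was present in 24 transcripts, Ighj2 in 17, Ighj4 in 15 and Ighj1 in 14. In Igha transcripts they were nearly even, at 7, 6, 7 and 7 from Ighj1 to Ighj4. In Ighm transcripts Ighj3 had 9 and the other three 4, 4 and 3, and in Ighg1 transcripts the counts were 1, 3, 5 and 4. Of the 11 D-to-constant transcripts, 9 used Ighj3 and 2 used Ighj2. Transcripts that shared the same junction of a V or D exon with J were each counted. With Ighj3, such junctions were those of Ighv5-2 (4 transcripts), Ighd2-5 (3), Ighd1-1 (2) and Ighd2-3 (2). With Ighj4 it was that of Ighv14-1 (5), and with Ighj1 those of Ighd1-1, Ighv5-1 and Ighv5-2 (2 each). The counts therefore do not rank the J segments by separate joins. The exon over the segment was shorter than annotated in 38 of 70 transcripts. Its median was 51 nt for Ighj1 (annotated 53), 47 nt for Ighj2 (48), 48 nt for Ighj3 (48) and 53 nt for Ighj4 (54), and the shortest was 38 nt, over Ighj4.

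**Figure D4:**
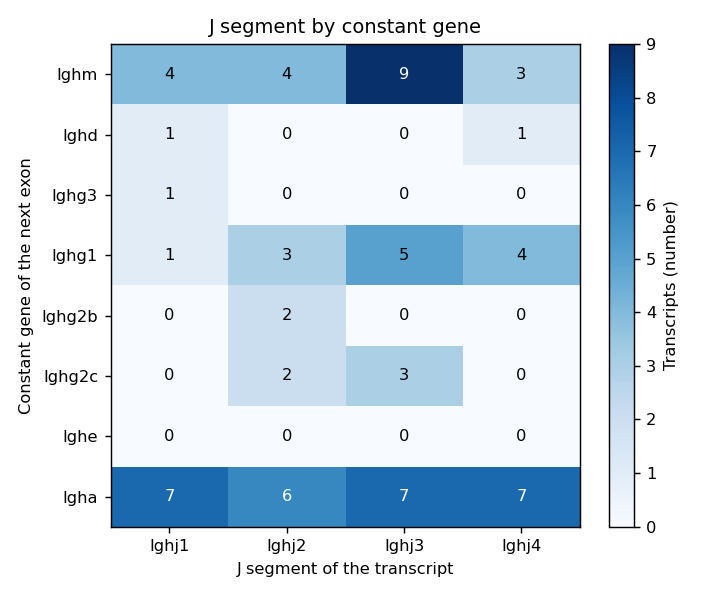
Number of transcripts by J segment (horizontal axis) and by the constant gene of the next exon (vertical axis), with the number in each cell. Igha has 6 or 7 with each J segment and Ighm has 9 with Ighj3; Ighe is 0 throughout because its J-containing transcript passes through Ighg1 first.

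Most V segments inside the region had an exon in a transcript, and fewer were linked to a constant gene. Of 121 annotated inside the region on the minus strand, 95 had an exon in a minus-strand transcript of the region. A V segment in a transcript with a constant exon was found for 38, 7 of them annotated as pseudogenes. Directly before a J segment there were 22, of which 13 in at least 2 transcripts. They lay between 150.2 and 753.7 kb upstream of Ighm, in the part of the variable region nearest to the constant genes. The Ighv5 family was in 28 of these 54 transcripts (10 segments) and the Ighv14 family in 12 (3 segments), and 5 other families were in 14. These counts take the V segment directly before J, however short its exon. That exon was 41 nt of Ighv14-1 in U055814-20, U055814-30 and U055814-60, against 297 nt in U055814-50 and U055814-79. It was 40 and 47 nt of Ighv14-3 in U055814-25 and U055814-61, and 13 nt of Ighv5-16 in U055814-44. In the transcripts with these short pieces, V exons of other families lay farther upstream and were not counted. Ighv5-2 was in the most transcripts, 8, and then Ighv14-1 in 7, Ighv14-3 in 4 and Ighv5-9 in 4. Ighv5-1, annotated as a pseudogene, was in 3. Transcripts that shared a junction with J were each counted, here and in the family counts. Of the Ighv5-2 transcripts, 4 shared 1 junction and 2 another, and 5 of the Ighv14-1 transcripts shared 1. Each junction of Ighv14-3 and Ighv5-9 was in 1 transcript, so the order is not one of separate joins. Of the 59 V-to-constant transcripts, 43 had exons of 1 V segment and 16 had exons of 2 to 5. Exons over D segments were separate in 3 of the 59, at 14, 14 and 10 nt. U055814-39 joined Ighv2-2 to Ighg2b directly, over 280341 bp, and was the only V-to-constant transcript without a J exon. It and the 10-nt D exon of U055814-59 were singled out after their values were seen.

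**Figure D5:**
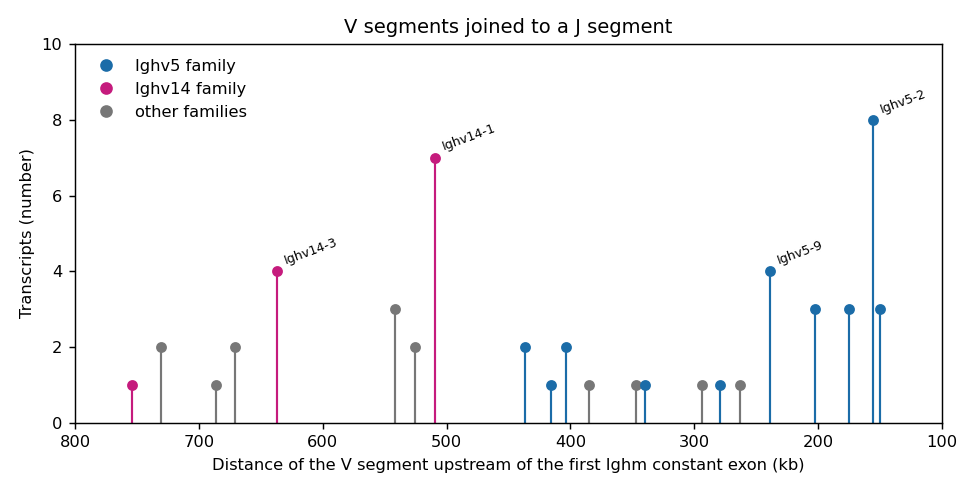
Number of transcripts (vertical axis) in which each V segment lies directly before a J segment, by the distance of the segment upstream of the first Ighm constant exon (horizontal axis, kb), coloured by family. Ighv5 segments lie from 150.2 to 436.4 kb, the highest are Ighv5-2 (8) at 155.8 kb and Ighv14-1 (7) at 509.2 kb.

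The same junction of a V or D exon with a J exon, with the J exon and the end of the upstream exon both identical, was seen with more than 1 constant gene. There were 55 distinct junctions in 69 transcripts, and 6 of them, in 18 transcripts, occurred with at least 2 constant genes. The rest of the upstream exon could differ, and positions were compared, not bases. Ighv14-1 with 53 nt of Ighj4 was in 5 transcripts, of Ighm, Ighd and Ighg1, U055814-20 being 1 of them. The Ighv14-1 exon was 297 nt in U055814-50 (Ighm) and U055814-79 (Ighd). It was 41 nt, after exons of Ighv1-4 and Ighv1-3, in U055814-20, U055814-30 and U055814-60. Ighv5-2 with 51 nt of Ighj3 was in 4, of Ighm, Ighg2c and Igha. The D exon of Ighd2-5 with 48 nt of Ighj3 was in 3, of Ighm and Igha. The other three, Ighd1-1, Ighv5-1 and Ighv5-2 with Ighj1, were each in 1 Ighm and 1 Igha transcript.

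V exons ended differently in the 2 kinds of minus-strand transcript. Directly before a J segment, 52 of 54 V exons ended within 10 nt of the annotated 3′ end of the segment, with a median of 2 nt short of it (-2 nt, range -46 to 4), and none ran 20 nt or more past it. In transcripts without a constant exon, 20 of 82 such exons ended within 10 nt, the median was 23.5 nt past the end (range -195 to 262) and 49 ran 20 nt or more past it. An end 24 nt past the segment was the commonest, in 21 exons. In unrearranged DNA the recombination signal lies directly after the V segment. The 2 sets also hold unlike kinds of end. Before J, the end of the V exon borders an intron. In transcripts without a constant exon, the V exon could be the last, as in U055814-112, so that its end was that of the transcript. The 82 exons covered 72 segments and the 54 covered 22, so most segments of the larger set were not in the smaller. What the difference reflects was not tested.

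The 93 V transcripts without a constant exon were short pieces of the same layout. The intron after the leader exon, which encodes the signal peptide, was present in 79, and 46 had just 2 exons. Exons of 1 V segment were found in 69 and of at least 2 in 24, and 85 segments were covered in all. None had an intron over 100 kb, and the longest was 84162 bp. Among minus-strand transcripts of the region, 60 V segments, of which 3 lay past its upper edge, had an exon in such transcripts alone.

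D-to-constant transcripts began with an exon that ran into a D segment from upstream. The D segment was Ighd2-5 in 5, Ighd1-1 in 3, Ighd2-3 in 2 and Ighd3-2 in 1, with first exons such as 237 nt for Ighd2-5. Ighm was the constant gene in 8 of the 11, and Ighg1, Ighg2c and Igha in 1 each. Of the 15 transcripts with a constant exon alone, 10 had a first exon upstream of the gene and outside annotated segments, over 6 genes. U055814-31 and U055814-47 shared a 170-nt first exon at chr12:114503159-114503328, with an intron of 4711 bp to Igha. First exons of 357 nt before Ighg2c (intron 6824 bp), 65 nt before Ighg2b (5877 bp) and 489 nt before Ighg1 (8370 bp) were seen once each. Ighg3 had 3, of 566, 225 and 108 nt, and Ighm had 2, of 218 and 295 nt, with introns of 3924 and 2989 bp. The other five began inside a constant gene, and 1 of them, U357355-1 (207 nt), lay over an annotated Ighd exon that no named transcript uses and is outside the 85.

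The plus strand showed a different picture. All of its 36 transcripts lay 509.2 kb or more upstream of Ighm. For counts by distance, each transcript was placed by its end nearest to the constant genes. In the most distal bin, from 1300 to 1439 kb, the strands then had 18 transcripts each. Minus-strand transcripts that reached from this bin to a nearer one, such as U055814-25, were counted in the nearer one. From the constant genes to 400 kb upstream, all 112 transcripts were on the minus strand. Of the 36, 29 lay opposite an annotated V exon (27 segments), 28 overlapped an exon of a minus-strand transcript of the list, and 14 were spliced. Of their 19 introns, 2 had both ends within 10 bp of a minus-strand intron. The stem U202275 covered 11, among them all 4 with an intron over 100 kb. U202275-6 had the most exons, 4, opposite Ighv1-30, Ighv1-33 and Ighv1-39, and U202275-11 the longest span, 134483 bp, opposite Ighv1-33, Ighv1-43 and Ighv1-46. The longest plus-strand intron was 126227 bp.

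The score column of the list was 0 for every U transcript of the region, and the 3 FT transcripts had scores of 1000, 968 and 998, on a scale that neither the labels nor the file explains. FT33204, at chr12:114658953-114659276, began within the 333-nt exon of Ighm and ran past its end into the secreted tail. FT329745 (304 bp) and FT322171 (2557 bp, plus strand) covered nearly the same bases as U171180-1 and U014473-1. At the lower edge of the region, U055814-31 and U055814-8 ended 3041 bp inside, and the nearest transcripts outside, U360353-1 and U246500-1, lay 13035 and 16099 bp away. At the upper edge, U247239-1 and U055814-93 were 4591 and 10110 bp inside, U353982-2 and U340371-1 were 13304 and 17908 bp outside, and 10 transcripts crossed the edge. The V segments go on beyond it. In the next 1200 kb a further 149 transcripts were listed, 88 on the minus and 61 on the plus strand, of which 102 overlapped a V exon, 11 had an intron over 100 kb and none had a constant exon.

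Other antigen-receptor genes looked up by the same runs of lengths were the T cell receptor gamma constant genes Tcrg-C1 (3 transcripts), Tcrg-C2 (2) and Tcrg-C4 (4). Their longest intron was 25273 bp and none was over 100 kb, and all 9 names began with U. Tcrg-C3, Trac, Trbc1, Trbc2 and Trdc had none, and the light-chain constant genes Igkc and Iglc1 to Iglc4 have too few exons for a run. The labelled cell type could not be checked from its markers, as none of 16 matchable pluripotency genes, out of 20, such as Pou5f1 and Nanog, was matched. An absence from the list therefore says nothing about expression in these cells.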

How the data were processed

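V6.5 mouse embryonic stem cell RNA was sequenced, per the labels' protocols, as 1 polyadenylated and 1 ribosomal-depleted library made strand-specific with dUTP. TopHat and mm9 are named in the submitters' processing notes. Neither labels nor file say how transcripts were assembled or pooled. The authors deposited 1 BED list with 12 columns. Its positions, strands, names and blocks were used, and the score column, whole numbers as deposited by the authors, was only described. No read counts were used, so depth and its precision are unknown.

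Neighbouring blocks less than 30 bp apart were treated as 1 exon. Constant genes were named by runs of intron, exon and intron lengths, in transcripts with at least 3 exons, that equal those of 1 gene in GENCODE M21 (GRCm38) on the same chromosome and strand. V, D, J and constant segments were then named by their distance from the 5′ end of the first Ighm constant exon, measured within each build, a step adopted after the layout of the list was seen. No coordinate was converted. As a check, 106 of 113 leader introns had both ends at the annotated distance, the farthest 1474 kb upstream. Coordinates are 1-based mm9, and printed bases are GRCm38 and were not compared with mm9. The members and gene lists were chosen with earlier results of these data known. The result of 1 list is not reported here. Transcripts named in the text were, for each constant gene, those with the longest intron and the most exons, the 10 longest introns, the plus-strand transcripts with the most exons and the longest span, and the 2 lines nearest to each edge. Others are named as examples, chosen after their values were seen.

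No test was made, as each group is 1 library and the list is pooled. Wilson 95% intervals cover counting error only. Python 3.11.15, numpy 2.4.6 and matplotlib 3.10.9 were used. The naming procedures were tested on transcripts simulated from the same annotation, which cannot show whether distances in mm9 equal those in GRCm38. Alternatives were other thresholds, edges, joining of blocks and assignment rules, distinct structures, and leaving out U names.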

Additional observations from a re-analysis of the deposited data

How the results depend on the processing

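Of 50 values under alternative settings, 35 were within 1.5 times the reported value. No 2 transcripts had the same structure, and all 9 counts over distinct structures stayed within 1.5 times. Without U names, 3 transcripts remained in the region, 2 on the minus strand. Of these 3, 0 were spliced, had an intron over 100 kb, were assigned to a constant gene by runs, with or without such an intron, or shared a constant exon. FT33204, counted under Ighm by exon overlap, was among the 3. With the upper edge moved 1200 kb outwards the region held 382 transcripts in place of 233. With a threshold of 200 kb, 40 transcripts had such an intron in place of 65. Assignment by exon overlap gave 85 constant-gene transcripts in place of 50, and 1 intron with 1 exon length gave 78. By exon overlap, 61 in place of 32 constant-gene transcripts had an intron over 100 kb. The 61 were the 59 V-to-constant transcripts and 2 D-to-constant transcripts. Among single genes, exon overlap took Ighg2c from 2 to 6 and Igha from 6 to 29, and 1 intron with 1 exon length took Igha to 28. For the counts of V-to-constant and D-to-constant transcripts, the alternatives were added after the data were seen. No paired analysis was possible because the list is pooled and each group has 1 library. Without read counts, no transcript can be weighed by its abundance or assigned to a library.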
